A study of Homo sapiens with 2 samples.

Results

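Kinetochore, spindle checkpoint and chromosome condensation genes were followed in 2 cultures of 786-O, a human cell line from a clear cell kidney cancer, grown in medium with 25 mM glucose or in medium with 0 mM glucose. The genes were chosen by name, as every symbol formed of CENP and letters (17 genes) and a fixed list of mitotic genes, and came to 48 of the 22595 symbols in the deposited tables. All 48 had at least 20 counts over both libraries, as did 14240 symbols in all. The cells are 1 established line that lacks functional VHL, and both cultures share that background. Each group held 1 library of total RNA, and the labels add the terms LucF for the culture with glucose and LucG for the other, without explaining them. How long the cells were without glucose is not stated.

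When a cell divides, each chromosome is held at its centromere by the kinetochore, a layered protein structure. Its inner layer, the constitutive centromere-associated network (CCAN), sits on nucleosomes that carry the histone variant CENP-A, and its outer layer, built around the Ndc80 complex, grips spindle microtubules. The spindle checkpoint delays chromosome separation until all kinetochores are attached, by holding CDC20 away from the anaphase-promoting complex (APC/C). Condensin and topoisomerase II shape the chromosomes, and separase cuts the cohesin that holds sister chromatids together. Transcripts of many of these genes are made mainly in the G2 and M phases of the cell cycle and are low in cells that do not divide.

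Transcription in G2 and M is known to be controlled through short promoter elements, and the promoters of genes far below 1 in their ratio are shown for that reason. The cell cycle genes homology region (CHR), bound by the LIN54 subunit of the MuvB complexes, was searched as TTTGAA or TTCGAA, and the CCAAT box, bound by NF-Y, as CCAAT. An E2F element was searched as TTTGGCGC, TTTCCCGC, TTTGCCGC or TTTCGCGC. Both strands were read, and matches of different motifs may overlap. The sequences below are the 250 bases before the RefSeq start of the gene (build GRCh38.p14), written 5′ to 3′ on the strand of the gene, with every match in capitals. Shown are the 6 genes with a CHR match whose counting interval lay farthest past 2-fold lower without glucose, at chr12:53268049-53268298 (plus strand), chr1:197146670-197146919 (minus), chr10:128126424-128126673 (minus), chr4:17810729-17810978 (plus), chr11:62123761-62124010 (plus) and chr17:40417897-40418146 (minus).
ESPL1: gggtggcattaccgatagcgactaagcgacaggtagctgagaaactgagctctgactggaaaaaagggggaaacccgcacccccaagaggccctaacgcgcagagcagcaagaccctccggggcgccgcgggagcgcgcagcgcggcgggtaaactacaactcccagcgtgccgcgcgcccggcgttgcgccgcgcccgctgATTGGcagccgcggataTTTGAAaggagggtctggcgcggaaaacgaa
ASPM: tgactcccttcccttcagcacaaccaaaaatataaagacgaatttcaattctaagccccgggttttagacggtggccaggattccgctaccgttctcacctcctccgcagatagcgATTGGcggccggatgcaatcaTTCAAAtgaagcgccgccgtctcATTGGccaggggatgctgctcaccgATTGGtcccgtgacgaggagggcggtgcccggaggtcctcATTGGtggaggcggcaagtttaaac
MKI67: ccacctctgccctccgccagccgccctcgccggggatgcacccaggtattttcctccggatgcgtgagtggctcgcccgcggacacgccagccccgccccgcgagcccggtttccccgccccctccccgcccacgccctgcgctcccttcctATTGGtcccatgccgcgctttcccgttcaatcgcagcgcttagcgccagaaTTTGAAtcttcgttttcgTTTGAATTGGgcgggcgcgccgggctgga
NCAPG: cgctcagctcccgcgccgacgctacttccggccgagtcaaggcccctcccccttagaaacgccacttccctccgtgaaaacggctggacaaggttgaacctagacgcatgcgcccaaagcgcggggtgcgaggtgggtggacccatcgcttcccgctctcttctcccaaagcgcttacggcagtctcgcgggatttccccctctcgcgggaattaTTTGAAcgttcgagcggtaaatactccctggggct
INCENP: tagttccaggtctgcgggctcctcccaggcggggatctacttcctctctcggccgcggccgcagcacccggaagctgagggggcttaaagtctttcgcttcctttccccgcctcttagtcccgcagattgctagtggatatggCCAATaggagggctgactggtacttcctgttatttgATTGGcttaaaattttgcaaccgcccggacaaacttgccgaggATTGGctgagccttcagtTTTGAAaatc
TOP2A: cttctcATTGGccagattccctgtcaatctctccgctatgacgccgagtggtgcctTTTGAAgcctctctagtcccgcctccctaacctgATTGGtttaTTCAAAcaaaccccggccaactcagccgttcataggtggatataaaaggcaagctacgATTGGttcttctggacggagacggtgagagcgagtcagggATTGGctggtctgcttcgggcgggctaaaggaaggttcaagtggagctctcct

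For contrast, the promoters of CENPV at chr17:16353470-16353719 (minus strand) and of CENPP at chr9:92325218-92325467 (plus strand, 1 of its 3 RefSeq starts) are those of the 2 genes whose ratios lay above 1. They were chosen after their values were seen, and hold no match to the searched letters in this window. Another start of CENPP has a CCAAT match at -153.
CENPV: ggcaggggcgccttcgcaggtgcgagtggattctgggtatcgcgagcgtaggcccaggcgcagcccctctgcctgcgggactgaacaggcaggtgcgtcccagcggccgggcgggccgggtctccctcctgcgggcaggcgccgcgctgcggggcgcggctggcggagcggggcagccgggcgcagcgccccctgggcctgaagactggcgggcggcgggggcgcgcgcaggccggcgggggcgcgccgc
CENPP: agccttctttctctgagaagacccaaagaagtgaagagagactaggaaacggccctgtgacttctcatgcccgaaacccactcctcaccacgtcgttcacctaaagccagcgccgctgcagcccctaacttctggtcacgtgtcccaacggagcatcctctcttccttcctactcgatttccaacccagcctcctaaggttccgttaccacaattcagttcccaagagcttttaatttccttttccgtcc

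A RefSeq promoter was matched for 39 of the 48 genes, with 45 starts. CENPH, CENPL, CENPM, CASC5, BUB3, TTK, BIRC5, AURKA and TPX2 had none. The share of genes with a CHR match in the 250 bases before a start was 51.6% for the matched genes that were lower without glucose (16 of 31, lower meaning an interval wholly below 0.5-fold) and 0 of 8 for the others, against 17.2% of all 27305 genes with a promoter. In 10 genes a CHR match began within 50 bases before the start, and the share of all genes for that shorter window was not computed. CCAAT matches were present in 67.7% of the lower genes and 4 of the 8 others, against 37.0% of all genes. With 8 other genes, 0 with a CHR match and 4 with a CCAAT match are near the shares of all genes. Both motifs together were found in 38.7% of the lower genes and 6.24% of all genes. The E2F letters were found in 1 gene, CENPA, against 3.4% of all genes. Among the 9369 measured genes matched to a promoter, 13.7% held a CHR match and 42.0% a CCAAT match. Both motifs were found in 5.34% of these measured genes and the E2F letters in 5.51%. With the 50 bases after the start included, 25 of the 31 lower genes (80.6%) and 1 of the 8 others, CENPN, held a CHR match, against 19.5% of all genes. The 26 genes with such a match had a median log2 ratio of -1.78 and the 13 without one of -1.08. These matches describe letters in a window and are not evidence of binding.

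**Figure D1:**
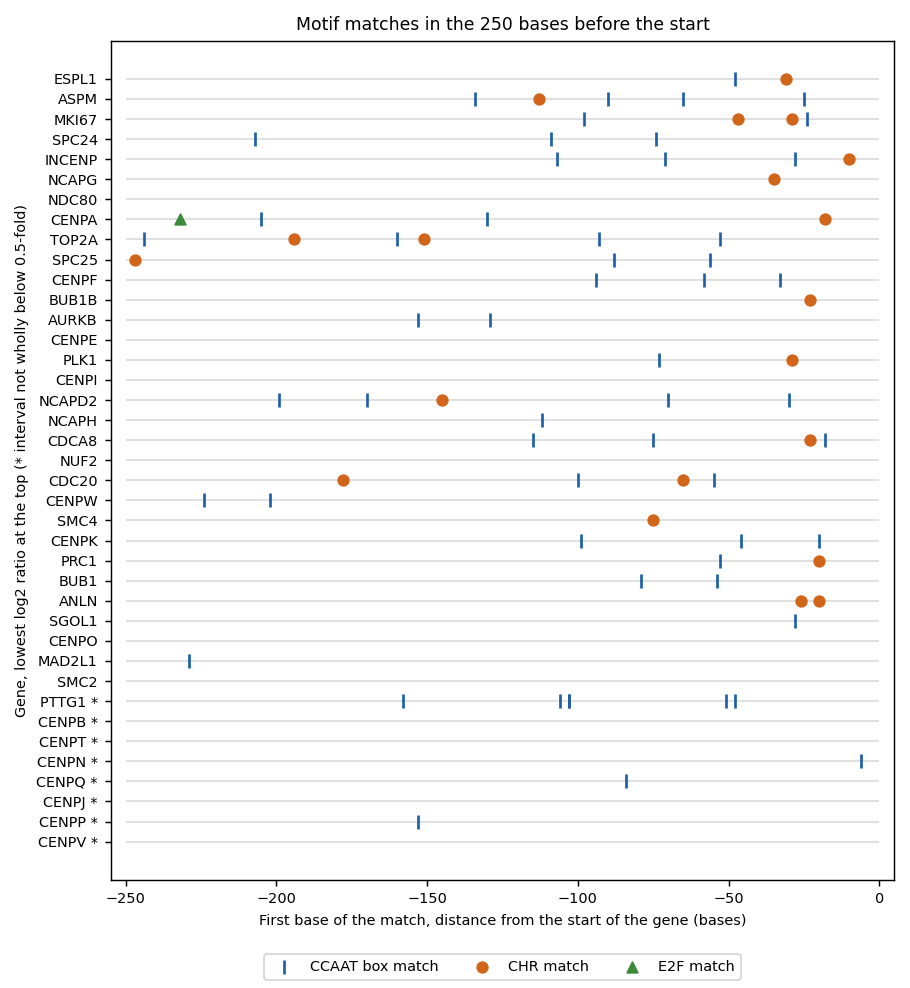
Positions of motif matches in the 250 bases before the start (x axis, bases from the start) for the 39 genes with a RefSeq promoter, ordered by log2 ratio from the lowest at the top, with all starts of a gene on 1 line. CHR matches (circles) are found in 16 genes, each of them lower without glucose by the rule of size, and in 0 of the 8 genes marked with an asterisk. For 8 genes, 0 is near the 17.2% of all genes that hold such a match.

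Depth was 27317598 counts in the library with glucose and 31345853 in the other. With 1 library per group there is no replicate check and no test, so each ratio is given with its exact 95% counting interval, which covers counting error only. A gene was called lower without glucose when this interval lay wholly below 0.5-fold, and higher when it lay wholly above 2-fold. Of all measured genes 6.2% were lower and 3.75% higher by this rule. Levels are counts per 1000000 of effective library size (CPM). Small RNA genes (nucleolar, Cajal body and microRNA) made up 5.83% of the first library and 7.99% of the second, and with these genes left out of the tables the same 37 of the 48 genes described were still lower (median log2 ratio -1.65). The renal factor PAX8 stood at 244 and 232 CPM, and the 6 markers of the renal line, all detected, summed to 5059 and 6287 CPM, mostly from vimentin (VIM). Of these 6 CDH6 was lower by the rule, at 192 and 8.36 CPM. The summed level of 5 leukocyte markers was 1.04 and 0.585 CPM and of 4 endothelial markers 1.72 and 0.390 CPM. Of the 3 erythroid markers HBB had 1 count without glucose and the others were at 0 in both libraries. The 6 fibroblast markers summed to 19.6 CPM with glucose and 9.63 CPM without, with LUM at 10.6 and 3.25 CPM and DCN at 3 and 5 counts. The part of other cell types in the results was not tested.

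The kinetochore and chromosome genes were lower in the library without glucose almost throughout. Of the 48 genes, 37 were lower by the rule and 0 higher, against 6.2% lower and 3.75% higher of all measured genes. The median over the 48 was a log2 ratio of -1.67 (quartiles -1.98 and -1.14), beside 0.01 (-0.45 and 0.42) for all measured genes. All 48 also had at least 100 counts, and of the genes with that many 6.46% were lower and 3.72% higher. Past 1.5-fold 41 of the 48 were lower, against 12.6% of all measured genes lower and 10.2% higher. Past 3-fold 24 were lower, against 2.15% lower and 1.4% higher. Together they took 244245 counts with glucose, 0.894% of the library (exact interval 0.891 to 0.898%), and 82819 counts without, 0.264% (0.262 to 0.266%). Among the 1424 measured genes with the lowest ratios were 38 of the 48, and among the lowest 142 were 2, ESPL1 and ASPM. In bulk RNA, fewer cells in G2 and M phase and less of these transcripts per cell cannot be told apart. Genes named without CENP were lower in 29 of 31 cases (median -1.80) and CENP-named genes in 8 of 17 (median -0.99), so that 9 of the 11 genes that did not pass carry a CENP name.

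**Figure D2:**
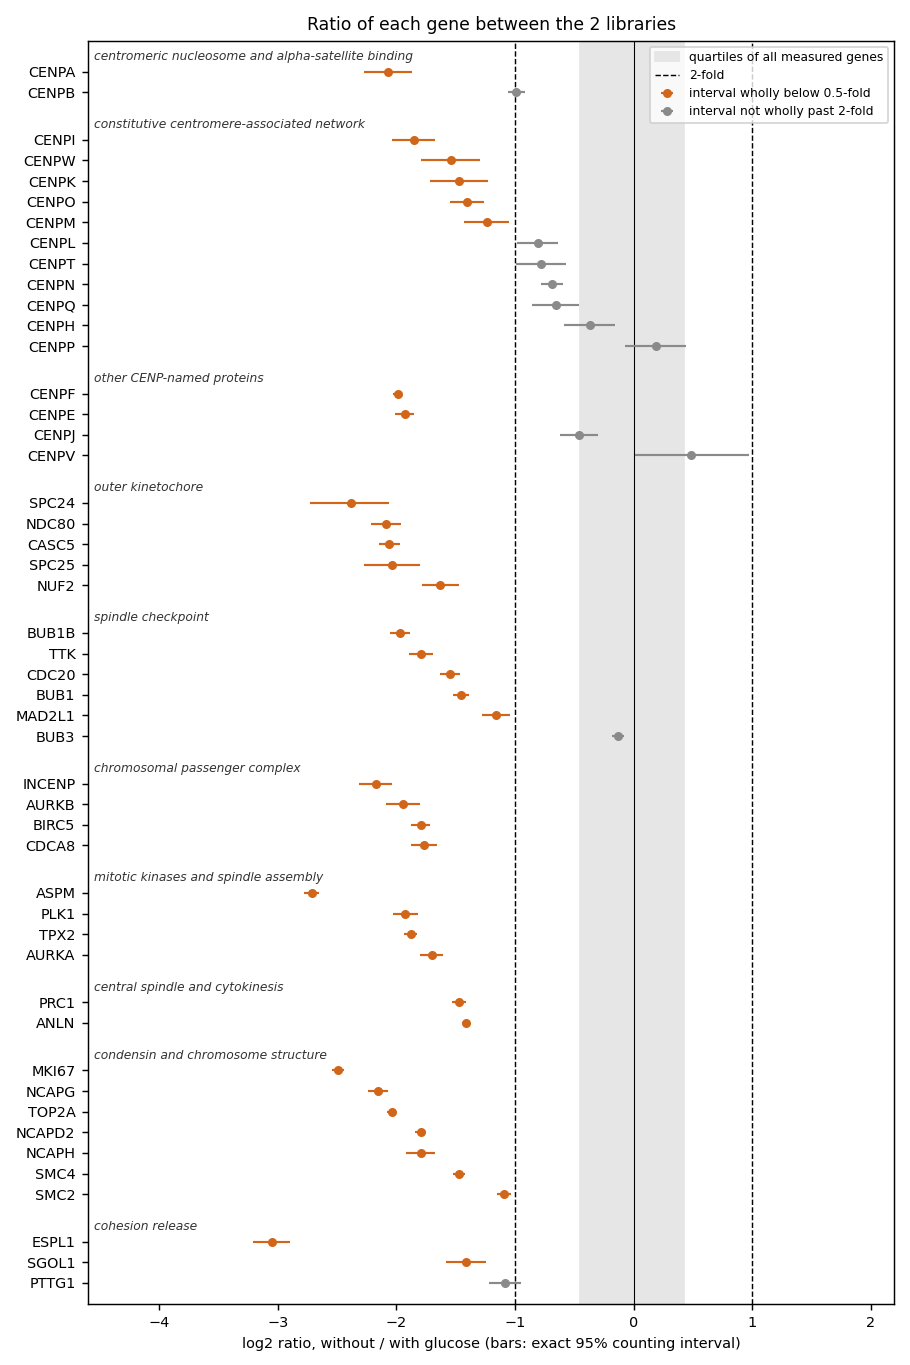
Log2 ratio (x axis, without over with glucose) of each of the 48 genes by role, with exact 95% counting intervals, the 2-fold lines and the quartiles of all measured genes in grey. The 37 genes called lower lie to the left of the left dashed line, while CENPP and CENPV are the only 2 points to the right of 0.

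The gene for the histone variant CENP-A, CENPA, was lower without glucose. It lies on chromosome 2 from 27008882 to 27017455 (hg19, plus strand) and had 982 counts with glucose and 258 without (35.3 and 8.39 CPM), a log2 ratio of -2.07 (interval -2.27 to -1.87). CENPB, which binds a short element in alpha-satellite DNA, had 4270 and 2374 counts (153 and 77.2 CPM). Its 1.99-fold lower level (interval 1.89 to 2.09) did not pass the rule. The intervals of these 2 centromere genes did not overlap.

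The CCAN split into subunits that were lower by the rule and subunits that were within it. Of 11 genes 5 were lower, with a median log2 ratio of -0.81 over all 11. CENPI had the lowest ratio, with 1041 counts with glucose and 318 without (37.4 and 10.3 CPM, 3.61-fold lower, interval 3.18 to 4.11). CENPW, a histone-fold subunit, was 2.91-fold lower (17.5 and 6.02 CPM), CENPK 2.77-fold (17.7 and 6.41 CPM), CENPO 2.64-fold (47.5 and 18.0 CPM) and CENPM 2.36-fold (26.3 and 11.2 CPM). The other 6 genes had smaller ratios, with CENPL at -0.81 (25.7 and 14.7 CPM), CENPT at -0.78 (17.1 and 9.92 CPM), CENPN at -0.69 (81.7 and 50.7 CPM), CENPQ at -0.66 (18.2 and 11.5 CPM) and CENPH at -0.37 (389 and 332 counts) on the log2 scale. Their counting intervals all lay below 0. CENPP stood apart with 231 counts with glucose and 290 without, a log2 ratio of 0.19 whose interval (-0.07 to 0.44) spans 0.

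Subunits of the same CCAN complex had unequal ratios. In the CENP-H/I/K/M complex the log2 ratios ran from -1.85 for CENPI to -0.37 for CENPH, and in the CENP-O/P/Q group from -1.40 for CENPO to 0.19 for CENPP. CENPT and its histone-fold partner CENPW were at -0.78 (interval -0.99 to -0.57) and -1.54 (-1.79 to -1.29). CENPL and CENPN, which form a pair that binds CENP-A nucleosomes, were close to each other at -0.81 and -0.69 with overlapping intervals. Several of these genes overlap others on the opposite strand, and whether the counting used strand is not stated. THAP11 (792 and 647 counts) lies within CENPT (475 and 305), which NUTF2 (1132 and 1455) overlaps too. ADCY3 (1075 and 980) overlaps CENPO (1322 and 552), and C16orf61 (540 and 486) overlaps CENPN. NOL8 (1990 and 3575) overlaps CENPP by 136 bases and IPPK (582 and 558) by 1972. Reads in the bases that such pairs share may have been counted for either gene, and their part in the ratios was not tested.

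Of the 4 remaining CENP-named genes 2 were lower. CENPF, a large coiled-coil protein of the outer kinetochore, had 22628 counts with glucose and 6288 without (812 and 205 CPM), 3.97-fold lower (interval 3.86 to 4.09). CENPE, the kinesin motor that moves chromosomes to the spindle equator, was 3.81-fold lower (193 and 50.5 CPM). CENPJ, which despite its name is a centriole assembly protein, had 723 and 579 counts, 1.38-fold lower (1.23 to 1.54). CENPV had the highest ratio of all 48 genes, with 62 and 96 counts (2.23 and 3.12 CPM). This is 1.40-fold higher without glucose with an interval from 1.01 to 1.96, at the smallest count of the set. Its log2 ratio of 0.49 became 0.43 with scaling by total counts and 0.32 when centred on genes of like length. In both of these cases the interval spans 0. With scaling by the upper quartile it was 0.53. CENPV had 2 of 5 exons with over 10 reads with glucose and 5 of 5 without.

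All 5 outer kinetochore genes were lower without glucose, with a median log2 ratio of -2.06. SPC24, a small subunit at the inner end of the Ndc80 complex, had 436 counts with glucose and 92 without (15.7 and 2.99 CPM), 5.23-fold lower with a wide interval of 4.17 to 6.62. NDC80, which binds microtubules, was 4.26-fold lower (90.2 and 21.2 CPM), SPC25 4.10-fold (25.7 and 6.28 CPM) and CASC5, the KNL1 scaffold on which checkpoint kinases assemble, 4.17-fold (177 and 42.4 CPM). NUF2, the partner of NDC80, had 1250 and 446 counts and was 3.09-fold lower (2.77 to 3.45). Per kilobase of gene model, the most and least abundant of the 4 Ndc80 complex transcripts differed 2.18-fold with glucose and 2.13-fold without. Their spread in level was thus similar in the 2 libraries while each of them was lower in one.

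Of 6 spindle checkpoint genes 5 were lower, and BUB3 was the exception. BUB1B, the BUBR1 protein of the mitotic checkpoint complex, had 4879 counts with glucose and 1374 without (175 and 44.7 CPM), 3.92-fold lower (interval 3.69 to 4.16). TTK, the MPS1 kinase that starts checkpoint signalling, was 3.47-fold lower (119 and 34.2 CPM) and CDC20, the APC/C activator that the checkpoint restrains, 2.92-fold (159 and 54.4 CPM). BUB1, a kinetochore kinase, was 2.74-fold lower (210 and 76.6 CPM) and MAD2L1, the MAD2 protein, 2.24-fold (61.3 and 27.4 CPM, 2.06 to 2.43). BUB3, a WD-repeat protein that brings BUB1 and BUBR1 to kinetochores, had 5771 counts with glucose and 5814 without (207 and 189 CPM), a log2 ratio of -0.13 (-0.18 to -0.08). Its interval did not overlap that of any other checkpoint gene listed here. Per kilobase BUB3 was at 75.2 and BUB1B at 47.1 CPM with glucose, and at 68.6 and 12.0 CPM without. The spread over BUB1, BUB1B and BUB3 was 1.60-fold with glucose and 5.71-fold without. PAK6 overlaps BUB1B on the same strand and had 307 and 99 counts.

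The chromosomal passenger complex, which corrects wrong attachments and later directs cell division, had all 4 members lower within a narrow range. INCENP, the scaffold, had 2174 counts with glucose and 532 without (78.1 and 17.3 CPM) and was 4.51-fold lower (interval 4.10 to 4.97). The kinase gene AURKB was 3.85-fold lower (65.6 and 17.0 CPM), BIRC5, survivin, 3.47-fold (206 and 59.2 CPM) and CDCA8, borealin, 3.40-fold (3.16 to 3.67) with 2819 and 915 counts. The 4 log2 ratios spanned 0.41, less than in the other complexes compared here except the CENPL and CENPN pair. EPR1, on the opposite strand of BIRC5, had 1 and 3 counts.

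Kinases and spindle assembly genes were lower as well, led by ASPM. ASPM, a spindle pole protein whose loss causes microcephaly, had 12670 counts with glucose and 2128 without (455 and 69.2 CPM) and was 6.57-fold lower (interval 6.28 to 6.88). It lies on chromosome 1 from 197053257 to 197115824 (hg19, minus strand), and 28 of its 28 exons had over 10 reads in both libraries. PLK1, a kinase needed for bipolar spindles, was 3.80-fold lower (115 and 30.2 CPM) and TPX2, an activator of Aurora A, 3.68-fold (464 and 126 CPM). AURKA, Aurora A itself, had 3324 and 1126 counts and was 3.26-fold lower (3.04 to 3.49), and its processed copy AURKAPS1 had 127 and 72 counts.

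Both genes of the last steps of division were lower, by less than the median of the 48. PRC1, which bundles microtubules of the central spindle, had 8225 counts with glucose and 3281 without and was 2.77-fold lower (295 and 107 CPM, interval 2.66 to 2.88). ANLN, the contractile ring protein anillin, had 21345 and 8857 counts and was 2.66-fold lower (766 and 288 CPM, 2.60 to 2.73). Their intervals overlapped each other.

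The 5 condensin I subunits were all lower, the ATPase subunits least. NCAPG was 4.45-fold lower (203 and 45.7 CPM, interval 4.20 to 4.72), and NCAPH (84.9 and 24.5 CPM) and NCAPD2 (518 and 149 CPM) were 3.47-fold lower each. SMC4 was 2.77-fold lower (349 and 126 CPM). SMC2 had 6717 counts with glucose and 3470 without, 2.14-fold lower with an interval of 2.05 to 2.23, the closest to the 2-fold bound of all genes that passed. SMC2 no longer passed with scaling by the upper quartile (log2 ratio -1.06) or when centred on genes of like length (-0.93). Per kilobase, NCAPD2 was 5.72-fold more abundant than NCAPH with glucose and 5.71-fold without. A small RNA gene, SCARNA10, lies within NCAPD2 on the same strand and had 12270 and 17215 counts, so the direction of its difference was opposite to that of its host. LCORL (792 and 529 counts) overlaps NCAPG (5664 and 1404) by 1649 bases on the opposite strand, and its part in the ratio was not tested.

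With glucose TOP2A and MKI67 had the most counts among the genes of condensin and chromosome structure. TOP2A, the topoisomerase that untangles chromosomes, lies on chromosome 17 from 38544773 to 38574202 and MKI67 on chromosome 10 from 129894925 to 129924468 (hg19, minus strand both). TOP2A had 29629 counts with glucose and 7946 without (1064 and 258 CPM) and was 4.12-fold lower (interval 4.02 to 4.22). MKI67, the Ki-67 protein that coats mitotic chromosomes, had 17888 and 3509 counts, a log2 ratio of -2.49 (-2.55 to -2.44). After ESPL1 and ASPM this was the third lowest ratio of the 48 genes.

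Genes that control the release of cohesion ranged widely. ESPL1, separase, the protease that cuts cohesin at anaphase, had 2820 counts with glucose and 376 without (101 and 12.2 CPM), 8.28-fold lower (interval 7.43 to 9.24). This was the lowest ratio of the 48 genes and ranked 87 from the bottom of the 14240 measured genes. ESPL1 lies on chromosome 12 from 53662083 to 53687427 (hg19, plus strand), and 30 of its 31 exons had over 10 reads with glucose against 11 without. PTTG1, securin, which holds separase inactive until anaphase, had 1314 and 685 counts, 2.12-fold lower, and with an interval of 1.93 to 2.33 it did not pass the rule. It passed with scaling by total counts (log2 ratio -1.14) and when centred on genes of like length (-1.39). PTTG1 has near-identical copies, PTTG2 (33 and 15 counts) and PTTG3P (86 and 52), and is uncertain to that extent. SGOL1, shugoshin, which shields centromeric cohesin from early removal, was 2.66-fold lower (34.8 and 13.1 CPM, 2.36 to 2.99). The intervals of ESPL1 and PTTG1 lay far apart, so the transcript of the protease and that of its inhibitor did not keep their ratio. Per kilobase PTTG1 stood at 66.8 and ESPL1 at 15.4 CPM with glucose, and at 31.6 and 1.86 CPM without.

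The order of levels per kilobase shifted between the libraries. With glucose TOP2A was the most abundant of the 48 (186 CPM per kilobase), followed by ANLN (161), TPX2 (127), NCAPD2 (108) and CDC20 (95.7). Without glucose BUB3 was the most abundant (68.6), up from place 9, followed by ANLN (60.7) and TOP2A (45.2). ESPL1 moved from place 38 to place 48, below CENPV and CENPP, which were last with glucose (1.92 and 2.44). The median over the 48 was 39.1 CPM per kilobase with glucose and 10.4 without. In 20 of the 48 genes fewer exons had over 10 reads without glucose, in 26 the number was the same and in 2, CENPP and CENPV, it was larger. Across the 48 genes the log2 ratio had a Spearman correlation of -0.40 with the level with glucose in CPM and -0.28 with gene model length, beside -0.10 and -0.22 across all 14240 genes. These are descriptions across genes of the same 2 libraries, and the level enters the ratio.

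**Figure D3:**
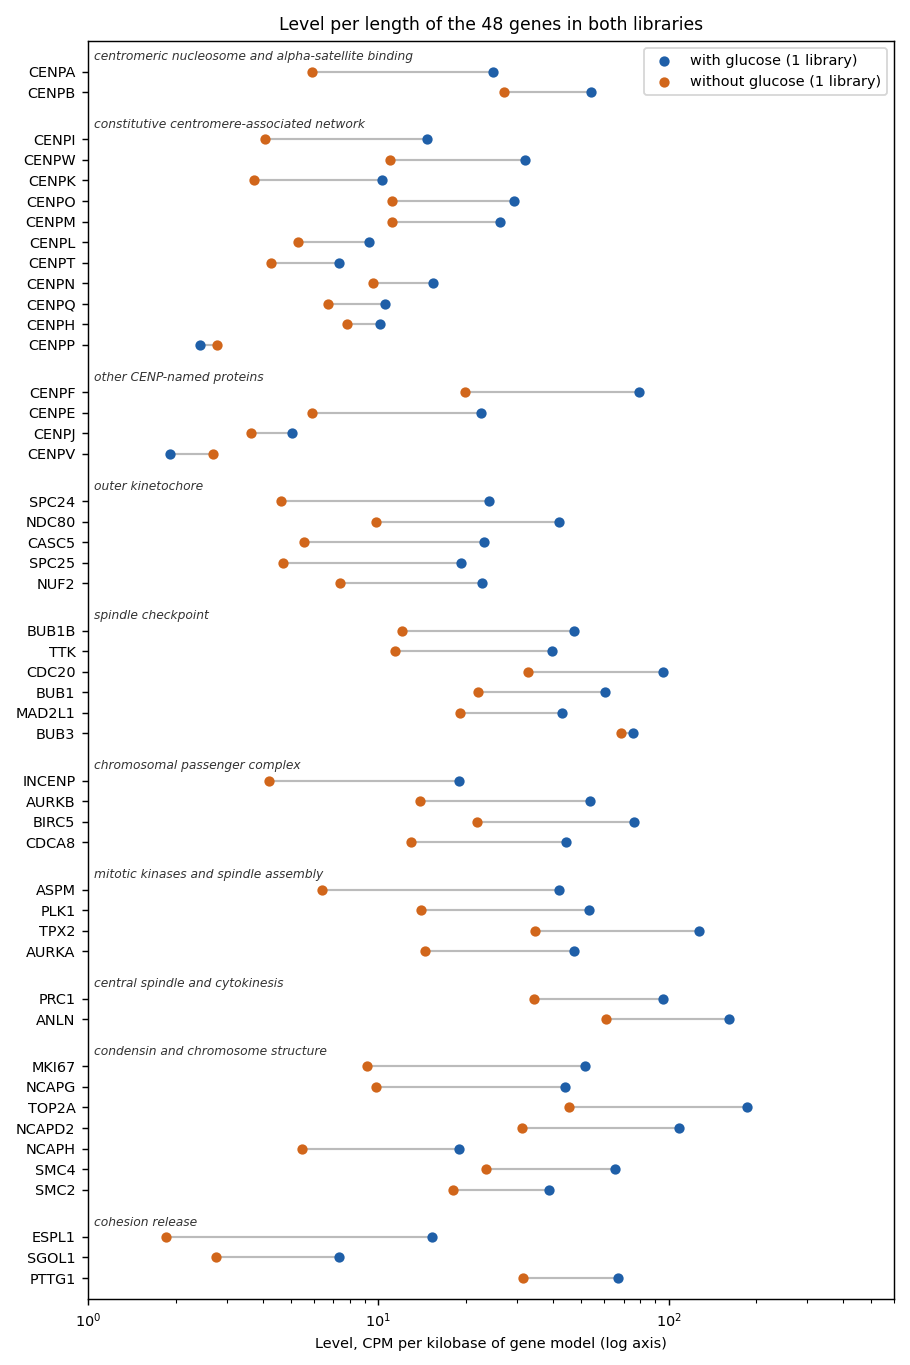
Level of each of the 48 genes in CPM per kilobase of gene model (x axis, log scale) with glucose (blue) and without (orange), 1 library each, by role. The orange point lies to the left of the blue one for 46 genes, and to the right for CENPP and CENPV.

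Of the same machinery 114 other genes were listed by role, all of them matched and measured. By the rule 37 were lower and 0 higher, against 6.2% lower and 3.75% higher of all measured genes. Their median log2 ratio was -0.62. Genes of mitotic entry were lower in 8 of 8 cases (median -1.55), among them CDK1, the mitotic kinase (205 and 53.4 CPM, 3.84-fold), its cyclin CCNB1 (245 and 72.0 CPM, 3.41-fold) and the phosphatase gene CDC25C (3.39-fold). Other spindle and cytokinesis genes were lower in 13 of 16 cases (median -1.51), led by GTSE1 (85.0 and 15.3 CPM, 5.55-fold), DLGAP5 (4.33-fold) and CKAP2L (4.06-fold).

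Kinetochore genes outside the CENP names were mixed. None of the 5 other CCAN genes passed (median -0.47), with MLF1IP, which encodes CENP-U, at -0.85 and APITD1, which encodes CENP-S, at 0.34. Of 6 genes of CENP-A loading 3 were lower, among them the CENP-A chaperone HJURP (266 and 94.5 CPM, 2.81-fold) and OIP5 (2.92-fold). Among the Mis12 complex genes and ZWINT only ZWINT was lower by the rule (112 and 39.8 CPM, 2.82-fold). The Mis12 complex genes went both ways, with DSN1 at -1.05, NSL1 at -0.33, MIS12 at 0.50 and PMF1 at 0.79 on the log2 scale. Of 7 genes of the Ska complex, the RZZ complex and Spindly 3 were lower, SKA1 (-1.30), SKA2 (-1.27) and KNTC1 (-1.21), and ZW10 was at 0.01. None of 5 other checkpoint genes passed, among them MAD1L1, the kinetochore anchor of MAD2, at -0.04 and TRIP13 at -0.99. For these lists too the share of all measured genes was 6.2% lower and 3.75% higher. A count of 0 of 5, as for the other CCAN and the other checkpoint genes, is near that share.

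No core subunit of the APC/C or of cohesin passed the rule, counts that are near the 6.2% lower and 3.75% higher of all measured genes. The 14 core subunits of the APC/C, the ubiquitin ligase that the checkpoint acts on, had log2 ratios from -0.51 (ANAPC7) to 0.87 (ANAPC10) with a median of 0.25. Its inhibitor FBXO5 (-1.37) and the ubiquitin-conjugating enzyme UBE2C (71.1 and 25.7 CPM, -1.47) were lower. The other listed partners, FZR1 (-0.93) and UBE2S (-0.49), did not pass. The 5 core cohesin genes ranged from -0.77 (RAD21) to 0.09 (STAG1), with a median of -0.17. Of all 14 listed genes of cohesin and its regulators 3 were lower, ESCO2 (34.4 and 8.26 CPM, 4.16-fold), SGOL2 (3.56-fold) and CDCA5, sororin (2.71-fold), while the release factor WAPAL was at -0.33 and PDS5A and PDS5B at -0.13 and -0.88. In condensin II NCAPD3 was lower (-1.57), NCAPG2 was at -0.92 and NCAPH2 at -0.14, and TOP2B, the paralog of TOP2A, was at -0.39.

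Of 13 transcription factors that act on G2 and M genes 3 were lower, against 6.2% of all measured genes. MYBL2, the B-MYB subunit that joins MuvB in dividing cells, was at 141 and 31.1 CPM (4.53-fold lower), FOXM1 at 201 and 72.9 CPM (2.76-fold) and TFDP1 at 59.0 and 26.4 CPM (log2 ratio -1.16). The MuvB subunits were within the rule, with LIN9 at -0.41, LIN37 at 0.28, LIN52 at -0.05 and LIN54, which binds the CHR, at -0.48. RBL2 (p130) was at -0.29, E2F4 at 0.04 and the NF-Y subunit NFYA at -0.22. None of 13 mitotic phosphatase genes passed (median -0.24), again near the share of all measured genes.

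**Figure D4:**
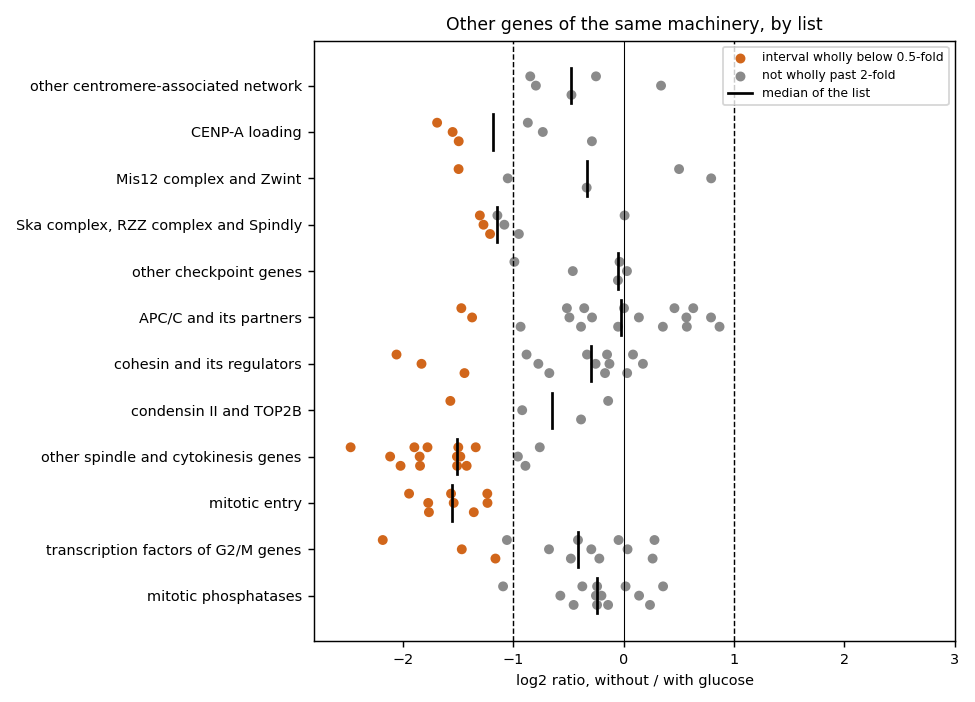
Log2 ratio (x axis, without over with glucose) of 114 other genes of the machinery in 12 lists, 1 point per gene, orange where the interval lies wholly below 0.5-fold, with the median of each list as a bar. The lists of mitotic entry (8 of 8 lower) and of other spindle and cytokinesis genes (13 of 16) lie to the left, and those of other checkpoint genes, APC/C and phosphatases have medians between -0.24 and -0.02.

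**Figure D5:**
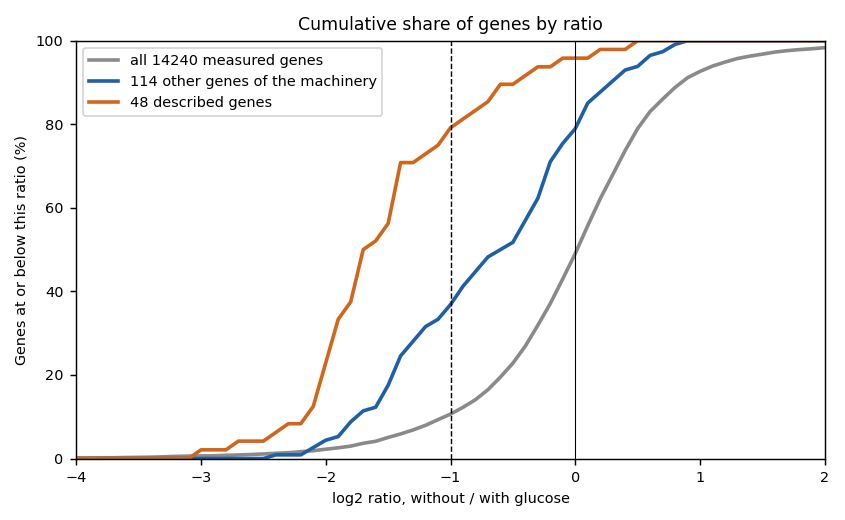
Share of genes (y axis, percent) at or below each log2 ratio (x axis, without over with glucose) for the 48 genes, the 114 other genes of the machinery and all 14240 measured genes. The curve of the 48 genes reaches 50% at -1.7, where that of the other genes of the machinery is at 11.4% and that of all genes at 3.65%.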

How the data were processed

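Per the labels' protocols, Trizol was used to extract RNA from 2 cultures of 786-O cells, 1 per group. The submitters' processing notes name hg19, while an aligner, a counter, strand use and read length are not stated there or in the labels. The deposited tables held 24364 gene models with whole-number counts, RPKM values (counts scaled by gene length and by library size, per the file headers) and the number of exons with over 10 reads. The deposited RPKM equalled counts over length times 1 constant per library, and were used for this check alone.

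Rows that repeated the place, length and counts of another (528) were removed, and the remaining rows were added up for each symbol. Effective library sizes came from TMM factors (edgeR 4.0.16 in R 4.3.3) of 1.02 with glucose and 0.981 without, computed on genes with at least 20 counts. Ratios and exact 95% Clopper-Pearson intervals were computed with scipy 1.17.1 under Python 3.11.15, with tables handled in pandas 2.3.3, from the share of a gene's counts in each library. PCR copies are not independent, so intervals cover counting error only. Their half-width on the log2 scale was 0.60 at 100 counts and 0.06 at 10000. The procedure was tested on simulated data drawn with counting error only, so that test does not cover variation between cultures. Alternatives, 1 of them scaling by DESeq2 1.42.0 size factors, are given with their effect in the closing section.

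The genes, role groups, lists and rules were chosen with earlier results of these data known. Every chosen gene is named, with counts for the extremes of each role, and up to 3 genes past the rule per other list. Further genes were named after their values were seen. Of the genes this rule names, 1 is not reported here. Older symbols are as in the tables (CASC5 is KNL1, SGOL1 is SGO1).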

Additional observations from a re-analysis of the deposited data

How the results depend on the processing

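No paired analysis was possible because both groups consist of 1 library, and for the same reason leaving out a replicate was not an option. The direction of all 37 genes called lower held under every alternative run, and CENPP and CENPV were the only 2 of the 48 above 0 in each. The interval of CENPP spans 0, and that of CENPV spans 0 under some of the alternatives. Other count minimums could not change the number of lower genes among the 48, since all 48 had at least 100 counts. That number stayed within 1.5 times of 37 under other scalings and centring on 10 length classes. The same held for the row with the most counts and for the 1.5-fold bound, while it was 24 with a 3-fold bound. Among the 114 other genes of the machinery 12 were then lower, and with a 1.5-fold bound 55 were lower and 2 higher. Of all measured genes 1800 were lower and 1451 higher with the 1.5-fold bound, and 306 and 200 with the 3-fold bound. With the 11 genes that overlap another gene model left out, a choice made after seeing the data, 29 of 37 were lower. Of 432 values of single genes under the alternatives, 32 lay outside the counting interval and 0 were reversed. The 432 include the values under other count minimums, which could not differ. Each other scaling moved all genes by the same amount, so these values are not independent checks. The median log2 ratio of all measured genes moved by less than 0.1 under each scaling. Depth limited mainly CENPV, SPC24 and CENPP.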
